A study of Mus musculus with 6 samples.

Results

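The genes described here are those of the tumour necrosis factor (TNF) superfamily and of the Bcl2 family, chosen by their platform symbol. A gene was a member if its symbol began with Tnfrsf, Tnfsf or Bcl2, or was Fas, Fasl, Bax, Bak1, Bid, Bad, Bbc3, Pmaip1, Mcl1 or Bok. The rule found 50 genes, on 51 probes, among 16446 genes with a symbol on the array, and the second probe was for Bcl2. They were 22 receptors and 11 ligands of the TNF superfamily, 16 genes of the Bcl2 family, and Tnfsf5ip1, which the rule took by its symbol only. That symbol is an old name of Psmg2, a proteasome assembly chaperone and not a TNF ligand. Bax was not analysed here.

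TNF superfamily ligands are mostly membrane-anchored trimers that cluster receptors on the same or a neighbouring cell. Receptors with a cytoplasmic death domain, such as Fas and Tnfrsf1a, can recruit Fadd and start caspase activation. Many receptors of the superfamily recruit TRAF adaptors and signal to NF-kappa-B and MAP kinases. Bcl2 proteins set the threshold of the mitochondrial route to apoptosis: Bcl2, Bcl2l1, Bcl2l2 and Mcl1 hold the outer membrane intact, Bax, Bak1 and Bok open it, and the BH3-only proteins bind and neutralise the first group or activate the second. Hepatic stellate cells store vitamin A when quiescent and turn into collagen-producing myofibroblasts in the injured liver, and their apoptosis is 1 of the ways in which fibrosis can resolve.

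Messenger RNA was measured on 6 single-colour arrays of hepatic stellate cells from mice with liver cirrhosis induced by carbon tetrachloride (CCl4), a hepatotoxin. The groups were 3 arrays of wild type mice and 3 of SEPT4-KO mice, which lack Sept4, a septin that forms filaments and is found in quiescent stellate cells. CCl4 cirrhosis was shared by both groups, so no array came from an uninjured liver. The labels give no strain, sex, age or CCl4 schedule, and do not say how the knockout was made, whether cells of several mice were pooled or whether arrays are separate isolations, and p-values therefore cover only the spread among these samples, which may be technical. Processing batches are not named either; if each genotype was a batch of its own, batch and genotype cannot be told apart. Sept4 itself was not analysed here, and the deleted gene could not serve as a check of the labels. Arrays are named below by the replicate number of their label.

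The upstream sequences of 4 members are printed because they are the receptor with the largest rise (Fas), its ligand, which fell (Fasl), and a second death receptor and the ligand with the largest rise among those that passed (Tnfrsf1a and Tnfsf13). Each is the 250 bases before the annotated start in RefSeq on GRCm38.p6, written 5′ to 3′ on the gene's strand. Fas lies on the plus strand at chr19:34290409-34290658, Fasl on the minus strand at chr1:161788496-161788745, Tnfrsf1a on the plus strand at chr6:125349473-125349722 and Tnfsf13 on the minus strand at chr11:69685555-69685804. Capitals mark matches to 4 motifs searched on both strands: the kappa-B consensus, the AP-1 site TGANTCA, the GC box GGGCGG and the TATA box TATAAA.
Fas: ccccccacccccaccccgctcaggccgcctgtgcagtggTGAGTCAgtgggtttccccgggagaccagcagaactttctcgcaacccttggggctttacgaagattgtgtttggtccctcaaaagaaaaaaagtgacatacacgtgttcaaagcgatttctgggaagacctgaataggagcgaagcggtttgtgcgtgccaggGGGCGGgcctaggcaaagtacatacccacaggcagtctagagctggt
Fasl: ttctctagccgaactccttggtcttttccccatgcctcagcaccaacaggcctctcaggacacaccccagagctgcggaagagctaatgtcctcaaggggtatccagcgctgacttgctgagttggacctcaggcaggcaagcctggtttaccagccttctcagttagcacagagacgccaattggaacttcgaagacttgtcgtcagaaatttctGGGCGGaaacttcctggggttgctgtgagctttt
Tnfrsf1a: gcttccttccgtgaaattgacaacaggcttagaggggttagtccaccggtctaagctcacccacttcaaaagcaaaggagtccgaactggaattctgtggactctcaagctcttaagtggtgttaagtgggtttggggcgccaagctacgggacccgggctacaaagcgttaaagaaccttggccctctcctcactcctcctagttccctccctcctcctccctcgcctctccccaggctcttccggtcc
Tnfsf13: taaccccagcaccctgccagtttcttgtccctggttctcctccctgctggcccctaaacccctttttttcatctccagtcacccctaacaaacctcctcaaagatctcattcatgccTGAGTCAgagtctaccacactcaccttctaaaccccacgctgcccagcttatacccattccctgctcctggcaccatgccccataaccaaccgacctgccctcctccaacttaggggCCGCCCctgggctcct
Fas held TGAGTCA from 211 to 205 bases before its start, and Tnfsf13 held it from 133 to 127. Both also had a GC box, from base 47 to 42 in Fas and from base 16 to 11 on the opposite strand in Tnfsf13, and Fasl had 1 from base 34 to 29. No marked match overlapped that of another motif, and the window of Tnfrsf1a matched none of the 4.

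Upstream windows were found for 40 of the 50 members. The AP-1 site was in 6 of these 40 (15%), against 7.82% of the 27025 genes with a window. Of these 6, Fas, Tnfrsf8, Tnfsf13 and Tnfsf13b rose in the knockout, and Tnfrsf9 and Tnfsf14 did not pass. Among all 40 members with a window, 12 rose, 7 fell and 21 did not pass. A GC box was in 23 members (57.5%, against 35.4% of all genes), a kappa-B match in 4 (10%, against 4.46%), and a TATA box in 4 (10%, against 14.3%). Of the 23 with a GC box, 9 rose, 4 fell and 10 did not pass. Of the 4 with a kappa-B match 1 rose and 3 did not pass, and no member with a TATA box passed. Among single windows, of which a gene can have several, the shares over all 32851 were 6.75%, 32.7%, 3.9% and 12.4%. These matches are letters in a window. The arrays measured RNA and not binding.

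Array medians were all 5.02 on the log2 scale, and over all probes 2 arrays of the wild type correlated at 0.986 (Pearson), 2 of the knockout at 0.981 to 0.982, and 1 of each at 0.967 to 0.971. The highest value of an array was 15.68 to 15.79 in the wild type and 16.63 to 16.79 in the knockout. The lowest was 0 to 0.216 and 0.305 to 0.323, so the genotypes differed at both ends of the scale. That lowest value was shared by 940 to 1255 probes, which makes a level there a bound. All 11 measured stellate cell markers lay above the lowest value on every array, with mean signals of 5.11 to 14.97. Of them 8 rose and 2 fell (90.9%, against 64.3% of all genes with a signal of at least 5). The brightest, Acta2, fell from 15.25 to 14.69, and Des fell by 0.41. The largest rises were those of Lrat, by 2.41, and Col3a1, from 12.13 to 14.22. The summed signal of the 11 was 15.6 to 15.77 in wild-type and 15.94 to 15.99 in knockout arrays. Of 11 macrophage and Kupffer cell markers, with mean signals of 2.53 to 11.25, 2 rose and 2 fell, and their summed signal was 12.1 to 12.19 in wild-type and 12.34 to 12.4 in knockout arrays (log2). The brightest of them, Cd5l, rose from 11.01 to 11.50 and weighs most in that sum, whereas Emr1 fell by 1.27 and Cd14 by 1.01. T and NK cell markers were dim: of 13, 1 rose and 2 fell, 5 lay at the lowest value on at least 1 array, and the sums were 6.87 to 7.12 and 6.93 to 7.26. Of 6 B cell markers 1 rose, with sums of 6.14 to 6.33 and 6.44 to 6.68. Of 9 neutrophil markers 1 rose and 2 fell, of 8 endothelial markers 1 and 1, of 10 hepatocyte markers 3 and 1, and of 5 cholangiocyte markers 1 fell. Their sums in wild-type and knockout arrays were 7.92 to 7.96 and 7.76 to 7.86 for neutrophils, 7.69 to 7.89 and 7.61 to 7.82 for endothelium, 11.28 to 11.33 and 11.47 to 11.53 for hepatocytes, and 7.76 to 7.82 and 7.47 to 7.55 for cholangiocytes. Of the macrophage and Kupffer cell markers 36.4% passed, of the T and NK cell markers 23.1% and of the B cell markers 16.7%. For neutrophils it was 33.3%, for endothelium 25%, for hepatocytes 40% and for cholangiocytes 20%. Each share is below the 44.3% of all genes that passed. Of all genes with a signal under 5, 20.9% passed. None of these markers lay at the lowest value on all 6 arrays. Their part in the differences of leukocyte receptors and ligands below was not tested.

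Of the 50 members, 14 were higher and 11 lower in the knockout at an adjusted p under 0.05 in limma, so 50% passed. Among all genes, with 1 probe each, 44.3% passed, 29.4% higher and 14.9% lower, and over all 23473 probes 42.7% did, 26.7% higher and 16% lower. Among the members the corresponding shares were 28% higher and 22% lower. The median log2 difference, knockout minus wild type, was 0.11 over the members and 0.14 over all genes, and the median sizes of the differences, sign aside, were 0.44 and 0.38. By family, 9 of the 33 TNF superfamily genes were higher and 7 lower, with a median difference of 0.06, and of the 16 Bcl2 family genes 4 were higher and 4 lower, with a median of 0.13. Bright members passed more often than dim ones, as did genes in general. Of 22 members with a mean signal of at least 5, 17 passed, 12 higher and 5 lower (77.3%, against 64.3% of all genes at that signal). Of the 28 dimmer members, 8 passed, 2 higher and 6 lower (28.6%, against 20.9%). Tnfrsf25, Tnfrsf9, Tnfsf7, Tnfsf14, Tnfsf15 and Bcl2l10 lay at the lowest value of at least 1 array, and of these 6 only Tnfsf7 passed. The arrays of the genotypes did not overlap for 30 members, 18 higher and 12 lower, or 60% where 57.6% of all genes did not. Differences were small: 3 members passed with at least a 2-fold difference, Tnfsf9, Fas and Tnfsf7, or 6% of the members against 6.4% of all genes. Quantile normalisation of the deposited values over all arrays moved the median difference of all probes from 0.12 to 0.024. It gave 10 members higher and 12 lower, so 45.5% of calls were higher in place of 56%. Over all probes that share moved from 62.6% to 52.5%.

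**Figure D1:**
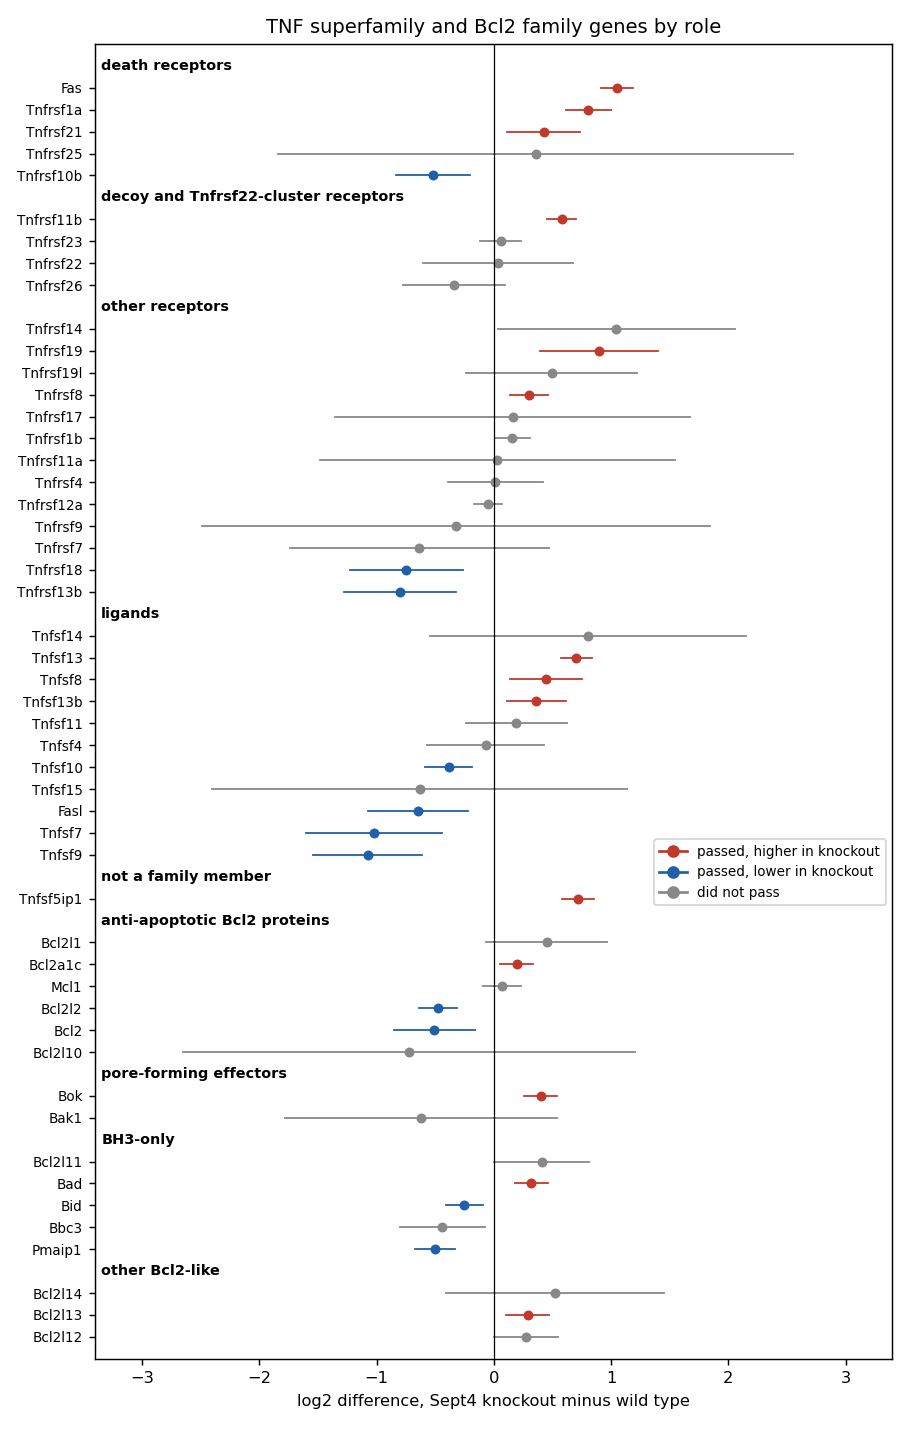
Log2 difference (knockout minus wild type) of the 50 members, grouped by role, with 95% confidence intervals from limma as bars and points red or blue where the adjusted p was under 0.05. Fas, Tnfrsf1a and Tnfsf13 lie on the right with short bars, Tnfsf9, Tnfsf7 and Fasl on the left, and wide grey bars belong to dim genes such as Tnfrsf25 and Tnfrsf9.

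Of the 5 death receptors, 3 rose, 1 fell and 1 did not pass. Fas, the receptor of Fas ligand and a classical inducer of apoptosis, read 7.88, 7.81 and 7.86 on the wild-type arrays and 8.96, 8.91 and 8.85 on the knockout arrays. Every knockout array was about 1 log2 unit above every wild-type array. The group means were 7.85 ± 0.04 and 8.91 ± 0.06 (SD, n = 3), and the difference was 1.05 ± 0.05 (SE) or 2.08-fold (adjusted p 0.000469). In an exact two-sided permutation test p was 0.1, which is the minimum for groups of 3 and 3 arrays. In these bulk samples more RNA per cell and more cells of a type that carries it cannot be told apart, here or below. Tnfrsf1a, the main receptor of TNF itself, read 5.29, 5.13 and 5.14 in wild-type and 6.08, 5.91 and 5.99 in knockout arrays. The genotypes did not overlap, and the difference was 0.81 ± 0.08 (SE) or 1.75-fold (adjusted p 0.00127). Tnfrsf21, also called death receptor 6, rose by 0.42 (adjusted p 0.0421).

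Tnfrsf10b, the mouse receptor of TRAIL that signals death, moved the other way. It read 5.58, 5.60 and 5.52 in wild-type and 5.24, 4.80 and 5.11 in knockout arrays, with the knockout values lower and more spread. The log2 difference was -0.52 ± 0.13 (SE, adjusted p 0.0240). Tnfrsf25 was too dim to place: it read 0.58 to 1.86 in wild-type and 0.32 to 3.14 in knockout arrays, and 1 of the latter was at its array's lowest value. The calls of Fas and Tnfrsf1a held whichever array was left out, with adjusted p-values up to 0.00574 and 0.00890. That of Tnfrsf10b ended without any single wild-type array or without knockout array 3 (0.0541 to 0.0767), and that of Tnfrsf21 without any single wild-type array or without knockout array 1 (0.0920 to 0.120).

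Among the decoy receptors and the Tnfrsf22 cluster, Tnfrsf11b alone passed. Tnfrsf11b is osteoprotegerin, a secreted decoy that binds Tnfsf11 and TRAIL. It read 12.31, 12.28 and 12.22 in wild-type and 12.88, 12.83 and 12.83 in knockout arrays. The knockout arrays were all higher, by 0.58 ± 0.05 (SE) or 1.49-fold (adjusted p 0.00103). After quantile normalisation the difference was 0.38, and after cyclic loess, which evens out array differences along the signal range, 0.33. Tnfrsf22 and Tnfrsf23, decoy receptors of TRAIL in the mouse, and Tnfrsf26, from the same gene cluster, differed by 0.03, 0.06 and -0.34, with adjusted p-values of 0.927, 0.530 and 0.169. These 3 are close relatives, and which of them each probe reads was not checked here.

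Of the 13 other receptors, 2 rose, 2 fell and 9 did not pass. Tnfrsf19 (TROY), a receptor of embryonic and progenitor cells, read 3.71, 3.43 and 4.08 in wild-type and 4.82, 4.66 and 4.43 in knockout arrays. All knockout values were above all wild-type values, and the difference was 0.89 ± 0.20 (SE, adjusted p 0.0181). Tnfrsf8 (CD30), a receptor of activated lymphocytes, rose by 0.30 (adjusted p 0.0151). Both falls were of receptors known mainly from lymphocytes, and both were dim.

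Tnfrsf13b (TACI), a B cell receptor of the ligands Tnfsf13 and Tnfsf13b, read 3.56, 2.90 and 3.47 in wild-type and 2.46, 2.54 and 2.52 in knockout arrays. Tnfrsf18 (GITR), a co-stimulatory receptor of T cells, read 3.65, 3.53 and 4.0 against 2.87, 2.79 and 3.28. In each the knockout values were all lower, by 0.80 ± 0.19 (SE) for Tnfrsf13b (adjusted p 0.0217) and by 0.75 ± 0.19 (SE) for Tnfrsf18 (adjusted p 0.0275). All 4 calls depended on single arrays. Tnfrsf19 was lost without wild-type array 1, knockout array 1 or knockout array 2 (0.0562 to 0.0591), and Tnfrsf8 without wild-type array 1 or 2 or knockout array 2 (0.0515 to 0.0575). Tnfrsf18 was lost without array 1 or 3 of the wild type or array 1 or 2 of the knockout (0.0673 to 0.0821), and Tnfrsf13b without each array in turn except wild-type array 2 (0.0586 to 0.0708).

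Tnfrsf12a (Fn14), the receptor of the ligand TWEAK and a gene induced by tissue injury, was well measured and nearly level between genotypes. It read 11.49, 11.49 and 11.43 in wild-type and 11.38, 11.43 and 11.44 in knockout arrays, which overlapped. The difference was -0.05, with a 95% confidence interval of -0.17 to 0.07, but after quantile normalisation it was -0.24 (adjusted p 0.00573) and after cyclic loess -0.26 (0.00441). Tnfrsf1b, the second TNF receptor, lay slightly higher on all knockout arrays, with 8.55, 8.54 and 8.68 against 8.40, 8.47 and 8.43. Its difference of 0.16 had an adjusted p of 0.0884. After cyclic loess this was 0.700, with a variance prior trended with the signal and robust to outlying genes 0.00642, and without the dimmest 50% of probes 0.0207. Tnfrsf14 (HVEM) had the largest difference among the receptors that did not pass, 1.04, with a 95% confidence interval of 0.03 to 2.05 and a dim signal of 1.73 to 3.77. With the trended and robust prior its adjusted p was 0.0461. The remaining 6, Tnfrsf4, Tnfrsf7, Tnfrsf9, Tnfrsf11a, Tnfrsf17 and Tnfrsf19l, differed by -0.64 to 0.49, with adjusted p-values of 0.230 to 0.974.

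**Figure D2:**
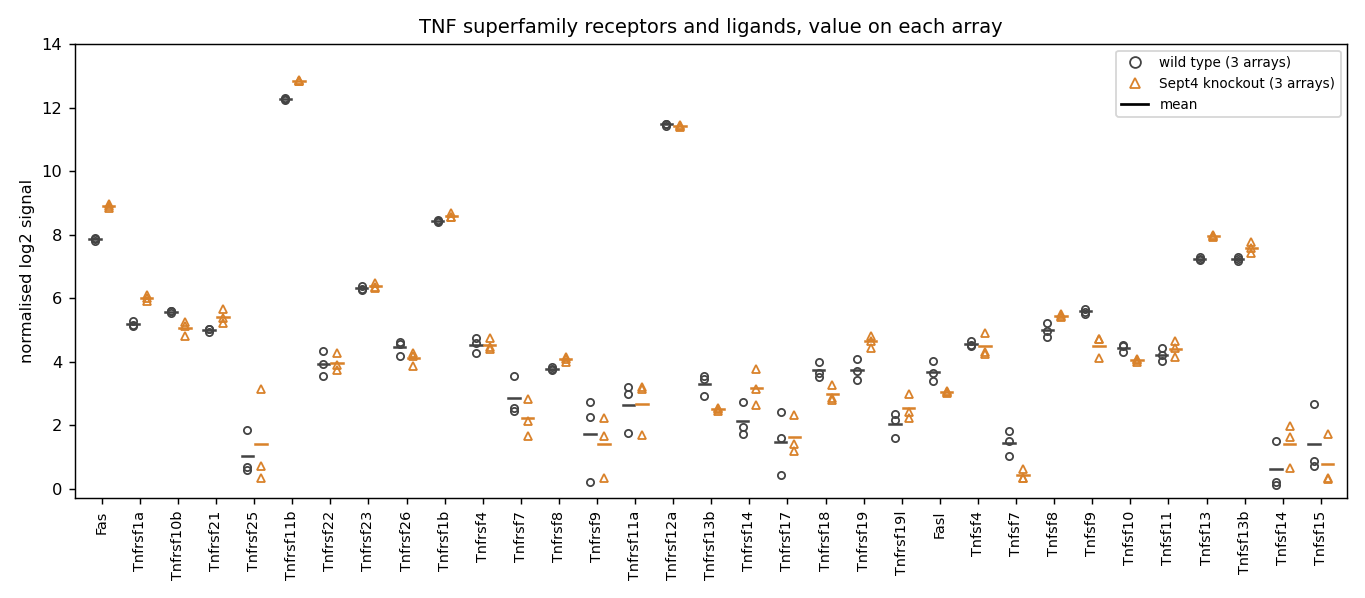
Normalised log2 signal of the 33 TNF superfamily genes on each array, wild type as circles and knockout as triangles, with a bar at each group mean; heights of different genes are not comparable, because each is a different probe. Within a gene the groups separate for Fas, Tnfrsf1a, Tnfrsf11b, Tnfsf9 and Tnfsf13, and overlap for Tnfrsf12a.

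Of the 11 ligands, 3 rose, 4 fell and 4 did not pass. Tnfsf9, the co-stimulatory ligand of Tnfrsf9 and known from antigen-presenting cells, had the largest fall among members above the lowest value on every array. It read 5.66, 5.58 and 5.51 in wild-type and 4.70, 4.70 and 4.12 in knockout arrays. The knockout arrays were all lower, and the third was lowest. The group means were 5.58 ± 0.07 and 4.51 ± 0.34 (SD, n = 3), and the difference was -1.08 ± 0.18 (SE, adjusted p 0.00753), a 2.11-fold fall, and the call held whichever array was left out, up to 0.0309.

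Tnfsf7, the ligand CD70 of activated lymphocytes, read 1.52, 1.81 and 1.02 in wild-type and 0.32, 0.63 and 0.32 in knockout arrays. The knockout values were at the lowest value of their array on 2 of the 3, so that level is a bound. The difference was -1.02 ± 0.23 (SE, adjusted p 0.0181), or -0.47 when a linear offset at the 10th percentile was added to all signals and -1.29 after cyclic loess, so its size cannot be ranked against that of Tnfsf9. Fas ligand (Fasl), the death ligand of cytotoxic lymphocytes, read 4.02, 3.65 and 3.39 in wild-type and 3.08, 3.04 and 3.0 in knockout arrays. All knockout values lay below the wild-type values, which were the more spread, and the difference was -0.65 ± 0.17 (SE, adjusted p 0.0303). Tnfsf10 (TRAIL), the ligand of Tnfrsf10b, read 4.30, 4.49 and 4.52 against 4.06, 4.10 and 3.98. It too was lower on all knockout arrays, by 0.39 ± 0.08 (SE, adjusted p 0.0139).

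The call of Tnfsf7 ended without wild-type array 1, knockout array 1 or knockout array 3 (adjusted p 0.0575 to 0.0607), and that of Tnfsf10 without wild-type array 2 (0.0529). That of Fasl ended without wild-type array 2 or any single knockout array (0.0735 to 0.0832). With the trended and robust prior, the adjusted p of Tnfsf7 was 0.168, of Fasl 0.0717 and of Tnfsf10 0.0802.

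Tnfsf13 (APRIL), a survival factor of plasma cells, read 7.20, 7.25 and 7.29 in wild-type and 7.91, 7.94 and 7.99 in knockout arrays. The genotypes were far apart relative to the spread within each. The difference was 0.70 ± 0.05 (SE) or 1.63-fold (adjusted p 0.000763). A transcript that joins the neighbouring gene Tnfsf12 to Tnfsf13 is known, and whether the probe also reads it was not checked here. Tnfsf13b (BAFF), the survival factor of mature B cells, rose by 0.36 (adjusted p 0.0356), and its call was lost after quantile normalisation (0.0681) and without each array in turn except knockout array 1 (0.0593 to 0.104). Tnfsf8, the ligand of Tnfrsf8, read 4.79, 5.22 and 4.98 against 5.49, 5.41 and 5.43. Its knockout values were tightly grouped above all wild-type values, and the difference was 0.45 ± 0.12 (SE, adjusted p 0.0346). That call was lost without each array in turn except wild-type array 2 (0.0610 to 0.0963).

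Tnfsf11 (RANKL), the osteoclast-inducing ligand that Tnfrsf11b captures, read 4.02, 4.42 and 4.21 in wild-type and 4.65, 4.14 and 4.43 in knockout arrays. The groups overlapped, and the difference was 0.19 with a 95% confidence interval of -0.24 to 0.62. Tnfsf4, Tnfsf14 and Tnfsf15 differed by -0.07, 0.81 and -0.63, with adjusted p-values of 0.797, 0.280 and 0.509. The last 2 were at the lowest value on 2 wild-type and on 2 knockout arrays respectively.

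Set beside each other, ligands and their receptors did not move in 1 common direction. Fas rose while Fasl fell. For TRAIL, both the ligand Tnfsf10 and the death-signalling receptor Tnfrsf10b fell, while its decoys Tnfrsf22 and Tnfrsf23 did not pass and the soluble decoy Tnfrsf11b rose. Tnfsf8 and Tnfrsf8 both rose. Tnfsf13 and Tnfsf13b rose, whereas of their receptors Tnfrsf13b fell and Tnfrsf17, the plasma cell receptor BCMA, differed by 0.16 with a 95% confidence interval of -1.36 to 1.67. Tnfsf9 fell, but its receptor Tnfrsf9 was at the lowest value on 1 array of each genotype and gave a difference of -0.33 with an interval of -2.49 to 1.84. No test of a ligand against its receptor was made.

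Of the 6 anti-apoptotic Bcl2 genes, 2 fell, 1 rose and 3 did not pass. Bcl2l2 (Bcl-w), a guardian of the outer mitochondrial membrane, read 9.92, 9.98 and 9.95 in wild-type and 9.39, 9.46 and 9.57 in knockout arrays. All knockout arrays were lower, by 0.48 ± 0.06 (SE) or 1.39-fold (adjusted p 0.00346). Bcl2, the founding member, read 5.08, 5.14 and 5.15 against 4.79, 4.33 and 4.73. Its knockout values were lower and more spread, with a difference of -0.51 ± 0.14 (SE, adjusted p 0.0337). The second, dimmer Bcl2 probe differed by -0.38 (adjusted p 0.354), and the mean of both probes by -0.44 (0.152). The call of Bcl2 also ended without any single wild-type array or without knockout array 3 (0.0545 to 0.0955).

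Mcl1, a short-lived survival protein of many cell types, read 11.06, 11.03 and 10.89 in wild-type and 11.04, 11.05 and 11.10 in knockout arrays. The groups overlapped. The difference of 0.07 had a 95% confidence interval of -0.09 to 0.23, and after quantile normalisation it was -0.11 (adjusted p 0.0961). Bcl2l1, which encodes Bcl-xL, read 4.92, 4.88 and 4.61 against 5.14, 5.64 and 4.97. It lay higher on all knockout arrays, with a difference of 0.45 (adjusted p 0.136), and an adjusted p of 0.00582 with the trended and robust prior. Bcl2a1c, of a group of near-identical genes that the probe may not separate, rose by 0.19 (adjusted p 0.0390), but after quantile normalisation its difference was -0.00041, and the call ended when any 1 of the 6 arrays was left out (0.0510 to 0.114). Bcl2l10 was dim and differed by -0.73, with an interval of -2.66 to 1.20.

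Of the effectors that open the outer membrane, Bok rose and Bak1 did not pass. Bok, a Bax-like protein, rose by 0.40 ± 0.06 (SE, adjusted p 0.00394), and its call held under every alternative tried, with differences of 0.24 to 0.43. Bak1 was dim, at 2.67, 2.20 and 3.36 in wild-type and 1.62, 1.85 and 2.88 in knockout arrays. Its groups overlapped, and the difference was -0.62 with an interval of -1.78 to 0.54.

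Of the 5 BH3-only genes, 1 rose, 2 fell and 2 did not pass. Pmaip1 (Noxa), a p53-induced antagonist of Mcl1, read 6.44, 6.44 and 6.43 in wild-type and 5.82, 6.03 and 5.95 in knockout arrays. The wild-type arrays were almost identical, and the knockout arrays were lower by 0.50 ± 0.07 (SE) or 1.42-fold (adjusted p 0.00356). Bid, which links death receptors to mitochondria once cleaved, read 7.84, 7.89 and 7.96 against 7.59, 7.72 and 7.63. It was lower on all knockout arrays, by 0.25 ± 0.06 (SE, adjusted p 0.0240). Bad, a growth factor-controlled antagonist of Bcl2 and Bcl-xL, read 9.91, 9.94 and 9.94 against 10.17, 10.27 and 10.31. It was higher on all knockout arrays, by 0.32 ± 0.05 (SE, adjusted p 0.00788), but by 0.14 (0.0787) after quantile normalisation.

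Bbc3 (Puma), another p53-induced BH3-only gene, read 4.51, 4.41 and 4.18 in wild-type and 3.85, 3.77 and 4.16 in knockout arrays. The lowest wild-type and the highest knockout value were close, and the difference of -0.44 ± 0.14 (SE) had an adjusted p of 0.0588. Bcl2l11 (Bim), a BH3-only activator, read 4.02, 4.31 and 4.61 against 4.78, 4.68 and 4.71. It was higher on all knockout arrays, by 0.41 ± 0.16 (SE, adjusted p 0.0963). Without knockout array 3 the adjusted p of Bbc3 was 0.0304, and without wild-type array 3 that of Bcl2l11 was 0.0266. The call of Bid ended without wild-type array 2 or 3 or knockout array 1 or 3 (0.0674 to 0.0745), while that of Pmaip1 held whichever array was left out, up to 0.0190.

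Of the remaining Bcl2-like genes, Bcl2l13, a mitochondrial protein also known as a receptor for mitophagy, rose by 0.29 (adjusted p 0.0259). After quantile normalisation it differed by 0.18 (0.0798), and its call was lost without any single wild-type array or without knockout array 2 (0.0552 to 0.0872). Bcl2l12 and Bcl2l14 differed by 0.27 and 0.52, with adjusted p-values of 0.0993 and 0.306. Tnfsf5ip1, the proteasome chaperone gene, read 9.16, 9.22 and 9.19 in wild-type and 9.84, 9.92 and 9.96 in knockout arrays. Its groups were well apart, with a difference of 0.72 ± 0.05 (SE), or 1.64-fold (adjusted p 0.000785).

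**Figure D3:**
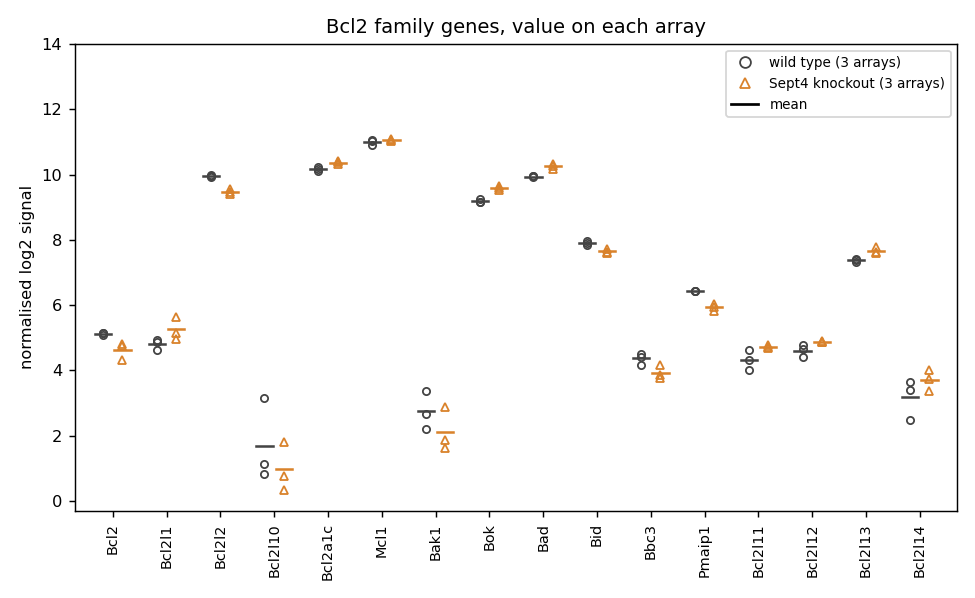
Normalised log2 signal of the 16 Bcl2 family genes on each array, wild type as circles and knockout as triangles, with a bar at each group mean. Bcl2l2 and Pmaip1 are lower and Bok and Bad higher on every knockout array, while Mcl1 overlaps and Bcl2l10 and Bak1 are dim and spread.

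**Figure D4:**
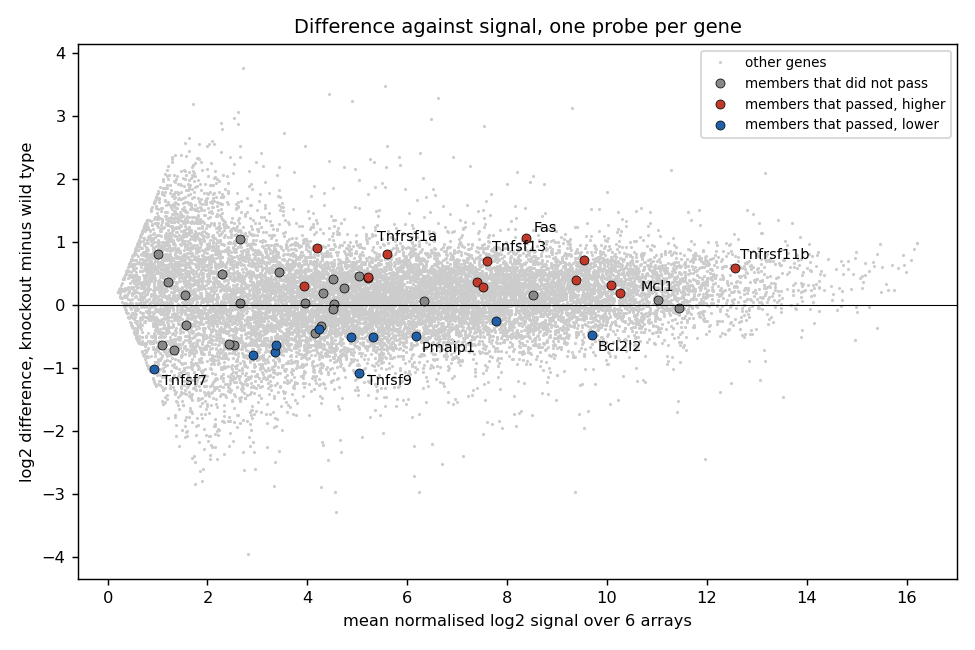
Log2 difference against mean log2 signal over the 6 arrays, with 1 probe per gene: small grey dots are the other genes and large dots the members, red where higher, blue where lower and grey where they did not pass. Below a signal of 5 the grey cloud widens, and only 8 of the 28 members there passed, whereas 17 of the 22 brighter ones did.

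Genes around these families were counted from lists that hold no member. Of the 10 TNF superfamily genes with other symbols, 1 rose and 2 fell (30%, against 44.3% of all genes). Most of the 10 were dim, with a median signal of 4.18. Of all genes with a signal under 5, 20.9% passed. Edar, the ectodysplasin receptor, differed by -1.01 ± 0.18 (SE, adjusted p 0.00922), and the lymphotoxin gene Ltb by -0.46 (0.0247), a call that ended without array 2 or 3 of either genotype (0.0731 to 0.0786). Ltbr, the lymphotoxin beta receptor of stromal cells, rose by 0.39 (0.00869). Tnf, named after its value was seen, differed by -0.03 (adjusted p 0.913).

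Of 21 adaptors and transducers of TNF receptors, 5 rose and 3 fell, or 38.1%. Among all genes 44.3% passed, 64.3% of those with a signal of at least 5 and 20.9% of dimmer ones. The signals of this list ran from 0.45 to 10.33, and all 8 calls were of genes with a signal of at least 5. Ripk3, the kinase of necroptosis, fell from a mean of 6.96 to 5.95, a log2 difference of -1.01 ± 0.07 (SE, adjusted p 0.000674). Daxx, a Fas-binding and histone-chaperone protein, fell by 0.71 (0.00118), and Tnfaip3 (A20), the ubiquitin-editing inhibitor of NF-kappa-B, by 0.59 (0.00260). Cflar (c-FLIP), which blocks caspase activation at death receptors, rose by 0.64 (0.00265) on its brighter probe and fell by 0.73 (0.0124) on the other, so its direction is not settled, and with averaged probes the list had 4 higher and 3 lower. Fadd and Casp8, the adaptor and the caspase of the death receptor complex, named after their values were seen, differed by 0.01 (0.951) and 0.05 (0.449). After quantile normalisation the list had 5 higher and 6 lower.

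Of 13 NF-kappa-B subunits and inhibitors, 6 rose and 3 fell (69.2%, against 44.3% of all genes and 64.3% of those with a signal of at least 5). The list holds dimmer genes too, with signals of 3.79 to 10.74. After quantile normalisation 4 of the 13 rose and 5 fell. The inhibitor genes split: Nfkbie rose by 0.88 ± 0.08 (SE, adjusted p 0.00127), whereas Nfkbib fell by 0.86 (0.0322) and the atypical inhibitor Nfkbiz by 0.58 (0.00123). Relb, the subunit of the non-canonical route that Ltbr and related receptors activate, rose by 0.55 (0.0149). Nfkb2, another subunit, named after its value was seen, differed by -0.11 (0.163), and by -0.205 (0.0296) after quantile normalisation. The call of Nfkbib ended without any single wild-type array or without knockout array 3 (0.0694 to 0.0912).

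Of 10 further genes listed with the BH3-only and BNIP genes, among them Bcl10 and Mtch2, 2 rose and 3 fell (50%, against 44.3% of all genes). Their signals ran from 1.44 to 10.37, and all 5 calls were of genes with a signal of at least 5. Of all genes at that signal 64.3% passed, and of dimmer ones 20.9%. Bnip1 rose by 0.56 (adjusted p 0.00148) and Bnip2 by 0.37 (0.00487), or by 0.17 (0.0446) after quantile normalisation. Bnip3l (Nix), a mitophagy receptor, fell by 0.58 (0.00807) and Moap1, a Bax-activating protein, by 0.43 (0.0239). The call of Moap1 ended without each array in turn except knockout array 1 (0.0513 to 0.0762). Of 16 genes listed with the mitochondrial route, among them Bag1 to Bag5 and Tegt, 7 rose and 2 fell. That is 56.2%, against 44.3% of all genes and 64.3% of those with a signal of at least 5. The signals of this list ran from 4.63 to 13.25. After quantile normalisation 7 of each direction passed. Apaf1, the scaffold of the apoptosome, rose from 7.77 to 8.35, a difference of 0.58 ± 0.06 (SE, adjusted p 0.00169). Tegt, which encodes Bax inhibitor 1, rose by 0.68 (0.000763) and the co-chaperone gene Bag3 by 0.66 (0.00186), whereas Bag2 fell by 0.94 (0.000778).

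Of 13 p53 target genes outside the members, 8 rose and 2 fell, or 76.9%. Among all genes 44.3% passed, and 64.3% of those with a signal of at least 5, as these 13 all have. After quantile normalisation 7 of the 13 rose and 3 fell. Trp53, the gene of p53 itself, was not among the 13. Trp53inp1, a p53-induced regulator of stress and autophagy, rose by 0.89 ± 0.08 (SE, adjusted p 0.00107), the sestrin gene Sesn1 by 0.82 (0.00111) and cyclin G1 (Ccng1) by 0.70 (0.00117), or by 0.44 after cyclic loess. Rrm2b, the p53-induced subunit of ribonucleotide reductase, fell from 6.22 to 4.89, a difference of -1.33 ± 0.12 (SE, adjusted p 0.00110). Among the members that are themselves p53 targets, Fas rose, Pmaip1 and Tnfrsf10b fell and Bbc3 did not pass. Cdkn1a, the p53-induced cell cycle inhibitor p21, named after its value was seen, fell by 0.43 (0.00307). Mdm2, also named after its value was seen, differed by -0.04 (0.478). After quantile normalisation Mdm2 differed by -0.21 (adjusted p 0.0101) and after cyclic loess by -0.24 (0.00785). Over the 83 genes of these lists together, 29 rose and 15 fell, or 53%, against 44.3% of all genes. Of genes with a signal of at least 5, 64.3% passed, and of dimmer ones 20.9%. The 83 hold both, with signals of 0.45 to 13.25, so neither share matches them.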

How the data were processed

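Normalised log2 signals of 6 arrays, 23473 probes each, were used as the authors deposited them. Per the labels the authors quantile normalised them. The deposited values of the 6 arrays do not share 1 distribution, however. Their medians were equal, but the highest value was 15.68 to 15.79 on wild-type and 16.63 to 16.79 on knockout arrays. The cause of this was not tested. The log base is not stated and log2 was taken from the range. The background correction and the scanner's software are not stated. A labelling protocol in the labels is for microRNA of tumours, unlike the stated design. Probes were named from the platform annotation; all 50 member symbols matched RefSeq, 4 under a newer symbol. A gene's probe with the highest mean was used, and no filter on low signal.

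Differences were fitted over all probes with lmFit and eBayes in limma 3.58.1 (R 4.3.3; 4 residual and 1.11 prior degrees of freedom), two-sided, with Benjamini-Hochberg adjustment over all probes and a threshold of 0.05. The number of arrays limits the precision. The fit was tested on simulated data. Alternatives were another scaling, dim-probe filters, a linear offset, other variance priors, array weights, a replicate block, omission of each array, averaged probes and an ordinary test. Every array's values were printed for the 16 largest differences among called, non-overlapping members and for named core members. Of each pathway list up to 4 genes by size of difference were named. Tnf, Fadd, Casp8, Nfkb2, Cdkn1a and Mdm2 were added after their values were seen. Members, lists and rules were chosen with earlier results of these data known. Figures were drawn with matplotlib 3.10.9.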

Additional observations from a re-analysis of the deposited data

How the results depend on the processing

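The arrays are few, 3 per genotype, and dim members near the lowest values of their arrays have imprecise sizes. Of 25 called members, 9 kept their direction and call in all 18 alternatives: Fas, Tnfrsf1a, Tnfrsf11b, Tnfsf9, Tnfsf13, Tnfsf5ip1, Bcl2l2, Pmaip1 and Bok. The other 16 lost the call in at least 1, and Bcl2a1c also changed sign. The trended prior also ended the calls of Tnfrsf8 (adjusted p 0.267) and Tnfrsf13b (0.0773), array weights that of Tnfsf8 (0.0615), and an ordinary test in place of limma's 6 calls, those of Bcl2, Fasl, Tnfrsf18, Tnfrsf21, Tnfsf8 and Tnfsf13b (0.0554 to 0.0716). Without 1 array at a time, 7 to 11 members were higher and 6 to 8 lower, in place of 14 and 11. Without the dimmest 50% of probes, where 22 members were left, 5 were lower and the median difference of the members was 0.30. With the trended and robust prior 17 were higher and 7 lower, so 70.8% of calls were higher in place of 56%. Of the 25 members that had not passed, 6 did in some setting: Tnfrsf1b, Tnfrsf12a, Tnfrsf14, Bcl2l1, Bcl2l11 and Bbc3, the last also with array weights (adjusted p 0.0290) and without the dimmest 25% of probes (0.0339). Of the 83 genes of the pathway lists, 26 were lower after quantile normalisation and 25 after cyclic loess, in place of 15. The cause of these shifts was not tested, except that the filter left fewer members.

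The replicate numbers did not pair the arrays: deviations of same-numbered arrays from their group means correlated at 0.0078, -0.0014 and -0.0020. With the replicate block 8 members were higher, among them Tnfrsf14 (adjusted p 0.0189), 5 lower, and 9 genes of the pathway lists lower. The block leaves fewer residual degrees of freedom.

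Members that changed sign had not passed, apart from Bcl2a1c (-0.00041 after quantile normalisation). After quantile normalisation and cyclic loess, Mcl1 differed by -0.11 and -0.13, Tnfrsf11a by -0.040 and -0.068, and Tnfrsf17 by -0.066 and -0.041. Tnfrsf22 differed by -0.13 with array weights. Leaving out 1 array at a time gave -0.42 to 0.52 for Tnfrsf11a, -0.36 to 0.63 for Tnfrsf17, -1.08 to 0.22 for Tnfrsf9, -0.12 to 0.12 for Tnfrsf4, -0.16 to 0.23 for Tnfrsf22, -0.52 to 0.89 for Tnfrsf25 and -0.28 to 0.047 for Tnfsf4.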
